A study of Mus musculus with 8 samples.

Results

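A set of 10 genes that carry glucose into the cell, break it down to pyruvate, reduce pyruvate to lactate and release the lactate was followed in irradiated Lewis lung carcinoma cells, out of the 13409 genes that could be tested on these arrays. The members are Slc2a1, Hk2, Pfkl, Aldoa, Gapdh, Pgk1, Eno1, Ldha and Slc16a3, taken in the order of the pathway, and Pdk1, which controls the fate of pyruvate. They were selected by name, and every probe carrying one of these gene symbols was read, 15 of the 21685 probes above background. LLC1 is an established tumour line derived from a lung cancer of a C57BL/6 mouse. Cultures received X-rays as 2 Gy at once (3 arrays), as 10 Gy at once (2 arrays) or as 5 fractions of 2 Gy (3 arrays, written 5x2 Gy, 10 Gy in total), and RNA was taken 4 h after treatment. Each of the 8 arrays paired RNA from irradiated cells, labelled with Cy5, with RNA from untreated LLC1 cells, labelled with Cy3. The dyes were never exchanged, so any dye effect of a probe enters each ratio to untreated cells. The labels speak of 3 biological replicates per regimen, but not of the interval between fractions or of whether the controls were separate cultures, and replicate 3 of 10 Gy was not analysed here.

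Glucose enters most tumour cells through the transporter GLUT1, encoded by Slc2a1, is trapped by hexokinase and is split into triose phosphates, from which the lower enzymes make ATP and pyruvate. Lactate dehydrogenase A turns pyruvate into lactate, and the monocarboxylate transporter MCT4, encoded by Slc16a3, carries lactate out of the cell. Pyruvate dehydrogenase kinase, encoded by Pdk1, restrains the entry of pyruvate into mitochondria, and many of these genes are known targets of hypoxia-inducible factor, so their coordinate expression is a familiar feature of tumours that ferment glucose.

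All 15 probes were above background in both channels on all 8 arrays. The keratin genes Krt8, Krt18 and Krt19 and the mesenchymal genes Vim, Fn1, Cdh2 and S100a4 were above background in all 8 untreated channels, as was Cd68, while Epcam, Cdh1, Nkx2-1, Ptprc, Adgre1, Itgam, Pecam1 and Dcn were in none. Of the other alveolar, endothelial and fibroblast markers, Sftpb was above background in 5, Sftpc in 1, Cdh5 in 3, Kdr in 1, Col1a1 in 7, Col1a2 in 4 and Pdgfra in 3 of them. In the irradiated channels Cdh2 was above background in 5, Cdh5 in 2, Col1a2 in 1 and Dcn in 5. Sftpb, Sftpc, Kdr and Col1a1 were there in 0, and the other markers were as in the untreated channels. The part of other cell types in the results was not tested. Over all probes, 44.8% to 49.1% were above background in untreated and 34.7% to 47.5% in irradiated channels. Precision is limited by the number of arrays. These came on 2 slides: the 2 Gy arrays shared slide 1 with 10 Gy replicate 1, and the 5x2 Gy arrays shared slide 2 with 10 Gy replicate 2. Over all genes the 10 Gy arrays correlated at r = 0.427 with each other, and the SD of the log2 ratios was 0.694 on 10 Gy replicate 1, beside 0.33 to 0.464 on the other 7 arrays. Values below are log2 ratios of irradiated over untreated cells. A mean carries its SE from limma, in which one spread per gene is shared by all regimens, and adjusted p-values are by Benjamini-Hochberg across all 13409 genes. The p-values measure the spread between these arrays.

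Against untreated cells, 3 of the 10 genes were higher and none was lower after 2 Gy (Aldoa, Gapdh and Ldha), where 16.9% of all genes were called, 8.99% higher and 7.94% lower. After 10 Gy, 4 were lower and none higher (Slc2a1, Hk2, Slc16a3 and Pdk1), where 28.2% of all genes were called, 12.4% higher and 15.8% lower. After 5x2 Gy the 4 genes named for 10 Gy were lower and none higher, where 41% of all genes were called, 17.6% higher and 23.4% lower. The share of 4 in 10 is thus at the background of called genes for 5x2 Gy and is no result about these genes. The median log2 ratio of the 10 genes was 0.15 after 2 Gy, -0.33 after 10 Gy and -0.13 after 5x2 Gy, beside medians of all genes of 0, -0.06 and -0.02. The genes fell into 5 whose tested probe was never saturated (Slc2a1, Hk2, Pfkl, Slc16a3 and Pdk1) and 5 with saturated spots (Aldoa, Gapdh, Pgk1, Eno1 and Ldha). The medians of the former were -0.18, -1.44 and -1.16 and those of the latter 0.38, 0.13 and 0.18 after 2 Gy, 10 Gy and 5x2 Gy.

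**Figure D1:**
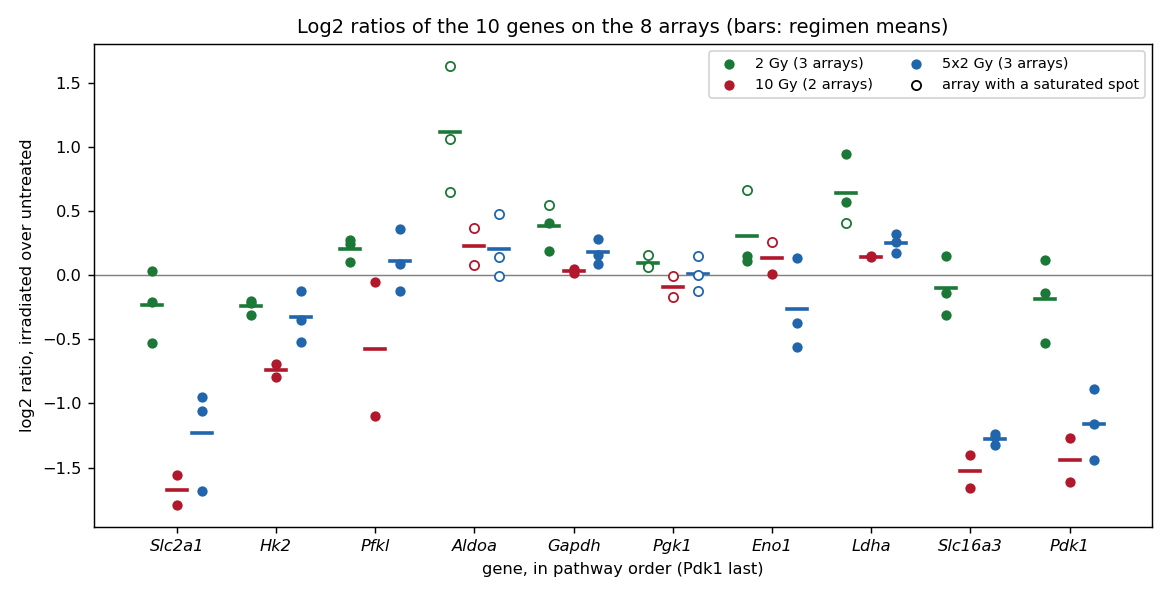
Log2 ratio of irradiated over untreated cells (y axis) for the tested probe of each of the 10 genes (x axis), with 1 point per array, coloured by regimen, and a bar for the mean of the regimen. Open points are arrays on which a spot of the probe was saturated. The 10 Gy and 5x2 Gy points of Slc2a1, Slc16a3 and Pdk1 all lie between -1.79 and -0.89, below every 2 Gy point of the same gene.

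The glucose transporter was lower after 10 Gy in total, whether given once or in fractions. Slc2a1 had log2 ratios of -0.53, -0.21 and 0.03 on the 2 Gy arrays, -1.79 and -1.56 on the 10 Gy arrays, and -1.68, -1.06 and -0.95 on the 5x2 Gy arrays. The 10 Gy and 5x2 Gy values overlapped with each other and not with those of 2 Gy. Slc2a1 transcripts fell 3.2-fold after 10 Gy (-1.68 ± 0.19, n = 2, limma adjusted p = 0.00049) and 2.35-fold after 5x2 Gy (-1.23 ± 0.15, n = 3, limma adjusted p = 5e-04). After 2 Gy the mean was -0.24 ± 0.15 (n = 3, limma adjusted p = 0.31), and it was 0.27 with the arrays centred on their median instead of loess. The signals behind these ratios were far from the scanner's ceiling of 65535, at 13200 to 24800 in the untreated and 5750 to 26500 in the irradiated channel.

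Hk2 encodes hexokinase 2, the inducible enzyme that phosphorylates glucose. Its log2 ratios were -0.22, -0.31 and -0.20 after 2 Gy, -0.79 and -0.69 after 10 Gy, and -0.35, -0.12 and -0.52 after 5x2 Gy. All 8 arrays were below 0, and the 10 Gy arrays lay below all others. Hk2 fell 1.67-fold after 10 Gy (-0.74 ± 0.12, limma adjusted p = 0.0021) and 1.26-fold after 5x2 Gy (-0.33 ± 0.10, limma adjusted p = 0.023), and had -0.24 ± 0.10 after 2 Gy (limma adjusted p = 0.11). The 5x2 Gy call was lost without 5x2 Gy replicate 1 (-0.32, limma adjusted p = 0.1) and replicate 3 (-0.23, limma adjusted p = 0.18). It was also lost with slide as a random block, median centring, scaling, the replicate block or median pixel signals (limma adjusted p = 0.057 to 0.32). Fitted on the 10 Gy pair alone, the 10 Gy value of Hk2 had a limma adjusted p of 0.21.

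The lactate exporter and the kinase that holds pyruvate back from mitochondria were also lower after 10 Gy in total. Slc16a3 had log2 ratios of -0.31, 0.15 and -0.14 after 2 Gy, -1.66 and -1.40 after 10 Gy, and -1.32, -1.26 and -1.24 after 5x2 Gy. The 2 Gy arrays lay on both sides of 0, and all 5 arrays that received 10 Gy in total were below -1.2. Slc16a3 fell 2.89-fold after 10 Gy (-1.53 ± 0.13, limma adjusted p = 0.00026) and 2.42-fold after 5x2 Gy (-1.28 ± 0.11, limma adjusted p = 0.00015). After 2 Gy it had -0.10 ± 0.11 (limma adjusted p = 0.55), which became 0.37 (limma adjusted p = 0.031) under median centring, so the direction after 2 Gy depends on the normalization.

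Pdk1 was measured by 2 probes. The tested one gave -0.53, 0.12 and -0.14 after 2 Gy, -1.27 and -1.61 after 10 Gy, and -1.44, -0.89 and -1.16 after 5x2 Gy. By this probe, every array with 10 Gy in total lay below every 2 Gy array. Pdk1 fell 2.72-fold after 10 Gy (-1.44 ± 0.18, limma adjusted p = 0.00071) and 2.24-fold after 5x2 Gy (-1.16 ± 0.14, limma adjusted p = 0.00048), and had -0.18 ± 0.14 after 2 Gy. With slide as a random block the 5x2 Gy value was -1.04 (limma adjusted p = 0.054). Over probes, 16.1%, 26.8% and 41.9% were called after 2 Gy, 10 Gy and 5x2 Gy. The second probe of Pdk1 was also lower, at -1.03 (limma adjusted p = 0.013 over the 21685 probes) after 10 Gy and -0.61 (limma adjusted p = 0.032) after 5x2 Gy. On the 2 Gy arrays the second probe read -0.64, 0.50 and 0.27, which is spread around 0. Its 5x2 Gy values were -0.96, -0.29 and -0.60 and overlapped with those of 2 Gy. For Slc2a1 and Slc16a3 the fall against untreated cells after 10 Gy and after 5x2 Gy passed the test in all 21 alternative settings, and for Pdk1 after 10 Gy. These settings are not independent, as leaving out either 10 Gy array gives the same fit for 5x2 Gy. None of them can address a dye effect.

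The promoters of these genes are shown because hypoxia-inducible factor binds a short core, ACGTG or GCGTG, in many glycolytic genes, and because the core occurs both in genes that fell and in genes that were not called lower. The 250 bases before the start of the first listed transcript were read from RefSeq for GRCm38.p6 and searched on both strands, so that CACGT and CACGC also count, and overlapping matches such as those of CACGTG count as 2. All 10 genes matched. The core ACGTG was found in 5 of the 10 windows, beside 16.6% of the windows of 27025 genes, GCGTG in 5 beside 28.2%, and either in 9 beside 38.6%. The windows below are written in the direction of the gene with the cores in capitals. They cover chr4:119108495-119108744 (plus strand) for Slc2a1, chr11:120948817-120949066 (plus) for Slc16a3, chr2:71872974-71873223 (plus) for Pdk1, chr6:82774455-82774704 (minus) for Hk2 and chr7:46845554-46845803 (plus) for Ldha.
Slc2a1: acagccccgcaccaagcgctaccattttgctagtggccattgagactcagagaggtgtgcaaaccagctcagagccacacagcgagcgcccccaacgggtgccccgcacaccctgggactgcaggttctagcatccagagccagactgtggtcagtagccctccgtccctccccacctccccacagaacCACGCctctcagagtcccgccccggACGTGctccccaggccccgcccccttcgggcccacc
Slc16a3: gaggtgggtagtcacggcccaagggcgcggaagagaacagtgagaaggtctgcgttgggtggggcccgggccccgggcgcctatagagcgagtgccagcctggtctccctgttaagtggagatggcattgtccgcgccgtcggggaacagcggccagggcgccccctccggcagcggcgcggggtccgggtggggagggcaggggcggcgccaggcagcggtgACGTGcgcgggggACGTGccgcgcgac
Pdk1: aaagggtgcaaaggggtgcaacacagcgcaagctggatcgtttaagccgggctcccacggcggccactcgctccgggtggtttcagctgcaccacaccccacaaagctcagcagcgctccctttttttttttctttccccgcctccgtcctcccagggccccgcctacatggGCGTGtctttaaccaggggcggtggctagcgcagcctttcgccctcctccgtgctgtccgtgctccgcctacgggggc
Hk2: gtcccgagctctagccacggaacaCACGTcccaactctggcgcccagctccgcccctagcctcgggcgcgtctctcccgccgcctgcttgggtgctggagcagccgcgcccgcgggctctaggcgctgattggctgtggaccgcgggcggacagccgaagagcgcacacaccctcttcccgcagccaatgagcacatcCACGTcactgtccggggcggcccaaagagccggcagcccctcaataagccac
Ldha: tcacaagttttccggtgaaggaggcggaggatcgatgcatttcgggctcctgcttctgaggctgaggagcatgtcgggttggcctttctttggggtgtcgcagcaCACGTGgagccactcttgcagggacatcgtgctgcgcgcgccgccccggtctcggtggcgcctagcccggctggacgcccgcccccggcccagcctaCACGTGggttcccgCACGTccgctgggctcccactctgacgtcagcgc
The window of Slc2a1 holds ACGTG at 36 bases before the start, that of Slc16a3 at 27 and 14 bases, and that of Hk2 at 226 and 52 bases. Pdk1, which also fell, has no ACGTG in its window and GCGTG once. Ldha, which was not called lower in any regimen, has ACGTG 5 times, at 145, 144, 48, 47 and 34 bases, where 4 of them form 2 copies of the palindrome CACGTG. Pgk1, which passed no test, has it at 150 and 131 bases. A match describes the letters only, and no binding was measured in these cells.

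None of the 6 members between these steps (Pfkl, Aldoa, Gapdh, Pgk1, Eno1 and Ldha) was called lower than in untreated cells in any regimen. Pfkl encodes the liver type of phosphofructokinase, which commits sugar to glycolysis. Its log2 ratios were 0.27, 0.10 and 0.24 after 2 Gy, -1.10 and -0.05 after 10 Gy, and -0.12, 0.36 and 0.09 after 5x2 Gy. The low value came from 10 Gy replicate 1 alone, and the 10 Gy arrays differed by 1.05, where the SD of this difference over all genes was 0.65. The mean after 10 Gy was -0.57 ± 0.21 (limma adjusted p = 0.07), and without 10 Gy replicate 2 it was -1.10 (limma adjusted p = 0.00022). Pfkl had 0.20 ± 0.17 after 2 Gy and 0.11 ± 0.17 after 5x2 Gy, neither past the test. With slide as a fixed block Pfkl was called in every regimen, at 0.73 (limma adjusted p = 0.0042), -0.57 (limma adjusted p = 0.0017) and -0.41 (limma adjusted p = 0.046) after 2 Gy, 10 Gy and 5x2 Gy, so its direction after 5x2 Gy depends on the block.

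The remaining 5 genes were read near the top of the scanner's range, where the ceiling caps a signal. On slide 1 their 9 probes had mean signals of 9794 to 27158 in the untreated and 32705 to 55412 in the irradiated channel, and on slide 2 of 29307 to 50892 and 24983 to 54964. The untreated channel was thus brighter on slide 2, and saturated spots there lay in both channels. Over the whole array there were 50 to 149 saturated spots in Cy5, while Cy3 had 0 to 2 on slide 1 and 63 to 104 on slide 2. The probes of the other 5 genes had medians of 7728 (Cy3) and 8012 (Cy5) on slide 1 and of 8607 and 4287 on slide 2. The part of the ceiling in the results below was not tested, other than by the unsaturated probes named.

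**Figure D2:**
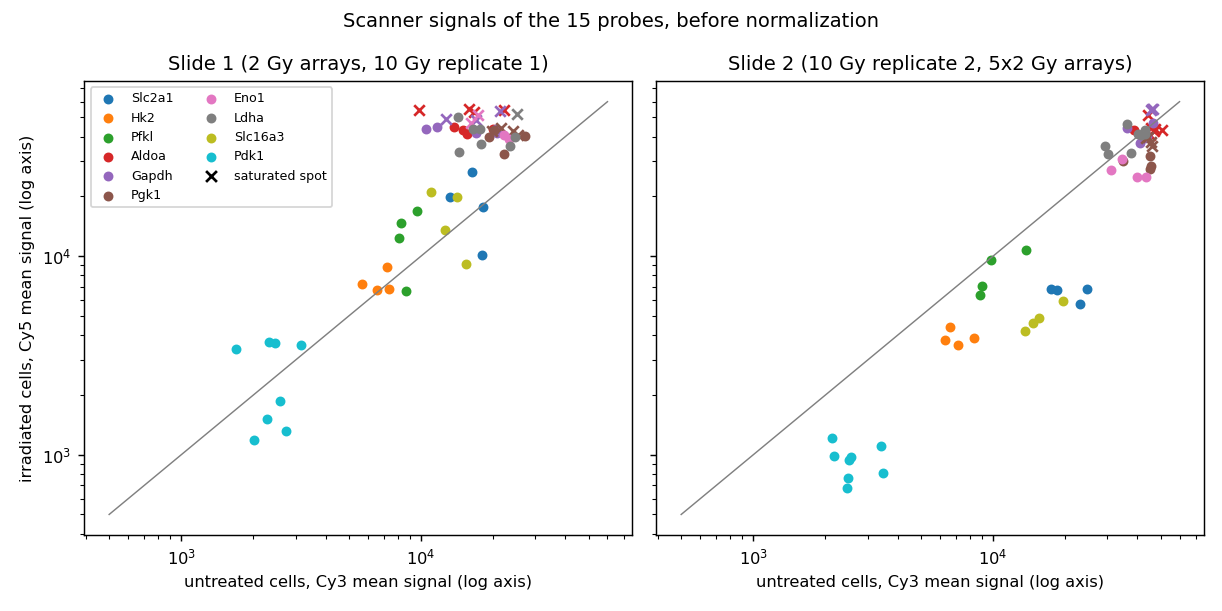
Mean scanner signal of irradiated cells (y axis, Cy5, log axis) against untreated cells (x axis, Cy3, log axis) before normalization, with 1 point per probe and array for the 15 probes, slide 1 on the left and slide 2 on the right; crosses are saturated spots and the line marks equal signals. The probes of Aldoa, Gapdh, Pgk1, Eno1 and Ldha crowd at 24983 to 55412 in the Cy5 channel of both slides, while the Cy5 signals of Slc2a1, Slc16a3 and Pdk1 lie lower on slide 2 than their Cy3 signals.

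Aldoa encodes aldolase A, which splits fructose bisphosphate. Its tested probe was saturated on all 8 arrays, in Cy5 on all 3 of the 2 Gy arrays and in Cy3 on 10 Gy replicate 2 and on each 5x2 Gy array. The ratios read 0.65, 1.63 and 1.06 after 2 Gy, 0.37 and 0.08 after 10 Gy, and -0.01, 0.14 and 0.48 after 5x2 Gy. With the irradiated signal at the ceiling, this probe and the loess fit put Aldoa at least 2.16-fold higher after 2 Gy (1.11 ± 0.17, limma adjusted p = 0.0037), and for 5x2 Gy no fold is given. The bound holds for this probe with the loess curve as fitted, and is no lower bound for the gene. The second probe, saturated on 2 arrays in Cy3, read 0.53, 0.84 and 0.70 after 2 Gy, 0.29 and 0.31 after 10 Gy, and 0.10, 0.13 and 0.23 after 5x2 Gy. It was above 0 on all 8 arrays and passed the test after 2 Gy (1.61-fold, 0.69 ± 0.09, limma adjusted p = 0.0024 over probes), where it had no saturated spot and lay below the bound of the other probe, so the size of the rise differs between the probes. It did not pass after 10 Gy (0.30) or 5x2 Gy (0.15).

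Gapdh encodes glyceraldehyde phosphate dehydrogenase, which is often used as a reference gene. The tested probe gave 0.41, 0.19 and 0.55 after 2 Gy, 0.05 and 0.02 after 10 Gy, and 0.09, 0.28 and 0.16 after 5x2 Gy. All were above 0, and the 2 Gy mean of 0.38 ± 0.10 (1.3-fold, limma adjusted p = 0.025) passed the test. Its call was lost without any one of the 2 Gy arrays (limma adjusted p = 0.055 to 0.2) and without 5x2 Gy replicate 3 (limma adjusted p = 0.054). The second probe read 0.92, 1.08 and 1.25 after 2 Gy, 0.91 and 0.43 after 10 Gy, and 0.47, 0.52 and 0.51 after 5x2 Gy, and passed the test in every regimen. On all 3 of the 5x2 Gy arrays its Cy5 spot was saturated, and the 5x2 Gy mean of 0.50 rests on the normalization: the ratio before loess was 0.25 on each array. The probes of Gapdh thus disagreed by more than the spread between arrays, and both list pseudogene transcripts of Gapdh among their accessions, so which transcripts they read is uncertain.

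Pgk1 encodes phosphoglycerate kinase, an ATP-forming step, and its tested probe was spotted 10 times on each array. The array means were 0.07, 0.16 and 0.06 after 2 Gy, -0.17 and -0.01 after 10 Gy, and -0.12, 0.15 and 0.00 after 5x2 Gy. No regimen passed the test, with means of 0.09 ± 0.09, -0.09 ± 0.11 and 0.01 ± 0.09. Within an array the SD over the 10 spots was 0.12 to 0.36. Between 5 and 9 spots per array were unsaturated, and their means ran from -0.16 to 0.16. The second probe had no saturated spot and means of 0.15, -0.37 and -0.35, none past the test over probes.

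Eno1 encodes enolase, and its probe also lists the near-identical copy Eno1b, so the reading may hold both. It gave 0.15, 0.66 and 0.11 after 2 Gy, 0.26 and 0.01 after 10 Gy, and -0.56, 0.13 and -0.37 after 5x2 Gy. The regimens overlapped and none passed the test (0.30 ± 0.15, 0.13 ± 0.18 and -0.26 ± 0.15).

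Ldha encodes lactate dehydrogenase A, and its 2 probes differed. The tested probe, with 1 saturated spot on 2 Gy replicate 1, gave 0.41, 0.94 and 0.57 after 2 Gy, 0.15 and 0.14 after 10 Gy, and 0.17, 0.32 and 0.26 after 5x2 Gy. The 2 Gy arrays lay above all others, and Ldha rose 1.56-fold after 2 Gy by this probe (0.64 ± 0.11, limma adjusted p = 0.0055), a call lost without 2 Gy replicate 2 (0.49, limma adjusted p = 0.051). The other probe had no saturated spot and read 0.08, 0.18 and -0.15 after 2 Gy, 0.04 and 0.30 after 10 Gy, and 0.54, 0.64 and 0.11 after 5x2 Gy. It had 0.04 ± 0.12 after 2 Gy (limma adjusted p = 0.85 over probes) and passed the test after 5x2 Gy (0.43 ± 0.12, limma adjusted p = 0.018). Neither probe was below 0 on average in any regimen.

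The 3 calls after 2 Gy were all read from probes with a saturated spot. With the brightest probe free of saturated spots on all arrays, 7 of the 10 genes could be measured, not Aldoa, Gapdh or Eno1, so of the 3 calls only that of Ldha could be read again (0.04, limma adjusted p = 0.85). With slide as a random block 0 of the 10 were called after 2 Gy, where limma called 21 of all genes (0.157%) and 1905 had an unadjusted p under 0.05. Centring on the median without loess moved the median of all genes to 0.13 after 2 Gy and changed the calls after 10 Gy: Aldoa (0.96), Gapdh (0.73), Pgk1 (0.63), Eno1 (0.84) and Ldha (0.84) were then called higher, beside 4 genes that were lower.

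The next question was whether the regimens differ from each other. By their tested probes all 10 genes had a lower mean after 10 Gy than after 2 Gy, and all 10 a lower mean after 5x2 Gy than after 2 Gy, though the other probe of Ldha had a higher one in both comparisons, with medians of -0.64 and -0.48 beside -0.04 and -0.02 over all genes. Between 10 Gy and 2 Gy, 3 of the 10 genes were called, all lower after 10 Gy, where 2.56% of all genes were called, 1.04% higher and 1.52% lower. Slc2a1 was lower by 2.71-fold (-1.44 ± 0.24, limma adjusted p = 0.028), Slc16a3 by 2.7-fold (-1.43 ± 0.17, limma adjusted p = 0.022) and Pdk1 by 2.39-fold (-1.26 ± 0.23, limma adjusted p = 0.033). On slide 1 alone, 10 Gy replicate 1 lay below the mean of the 2 Gy arrays by 1.55 for Slc2a1, 1.56 for Slc16a3 and 1.09 for Pdk1. It also lay below each of the 2 Gy arrays for these 3 genes. This reading rests on 1 array, whose log2 ratios had an SD of 0.694 over all genes. The other arrays had 0.33 to 0.464. The 3 calls were at the edge of the threshold. Leaving out any one of the 2 Gy or 5x2 Gy arrays gave limma adjusted p-values of 0.053 to 0.15 for the 3 genes, at differences of -1.59 to -1.11. In these fits 0% to 0.0373% of all genes were called. Slc2a1, Slc16a3 and Pdk1 stayed called without 10 Gy replicate 1 (11.2% of all genes called) and without 10 Gy replicate 2 (32.1%). Over probes, where 2.23% were called, the second probe of Pdk1 was at -1.08 ± 0.31 (limma adjusted p = 0.1), and the unsaturated probe of Ldha at 0.13 ± 0.19, where the tested one was at -0.50 ± 0.17.

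Between 5x2 Gy and 2 Gy, 1 of the 10 genes was called, where 1.31% of all genes were called, 0.38% higher and 0.925% lower. Slc16a3 was lower by 2.26-fold after 5x2 Gy (-1.18 ± 0.15, limma adjusted p = 0.024). Slc2a1 (-0.99 ± 0.22, limma adjusted p = 0.057), Pdk1 (-0.98 ± 0.20, limma adjusted p = 0.053) and Aldoa (-0.91 ± 0.24, limma adjusted p = 0.072) missed the threshold, and with only the 2 Gy and 5x2 Gy arrays in the fit 5 of the 10 were called, where 29.9% of all genes were. Leaving out any one of the 2 Gy or 5x2 Gy arrays ended the call of Slc16a3 (limma adjusted p = 0.1 to 0.2). Its difference was then -1.28 to -1.05, and 0% of all genes were called. Over probes, where 1.94% were called, Pdk1 was called by its tested probe (limma adjusted p = 0.047) and not by the second (-0.66 ± 0.28, limma adjusted p = 0.17). The second probes of Aldoa (-0.54 ± 0.13) and Gapdh (-0.59 ± 0.15) were below 0 and missed the threshold, and the unsaturated probe of Ldha was above 0 (0.39 ± 0.17, limma adjusted p = 0.18). No slide held both regimens, so slide and regimen can be separated here only through the 10 Gy pair.

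**Figure D3:**
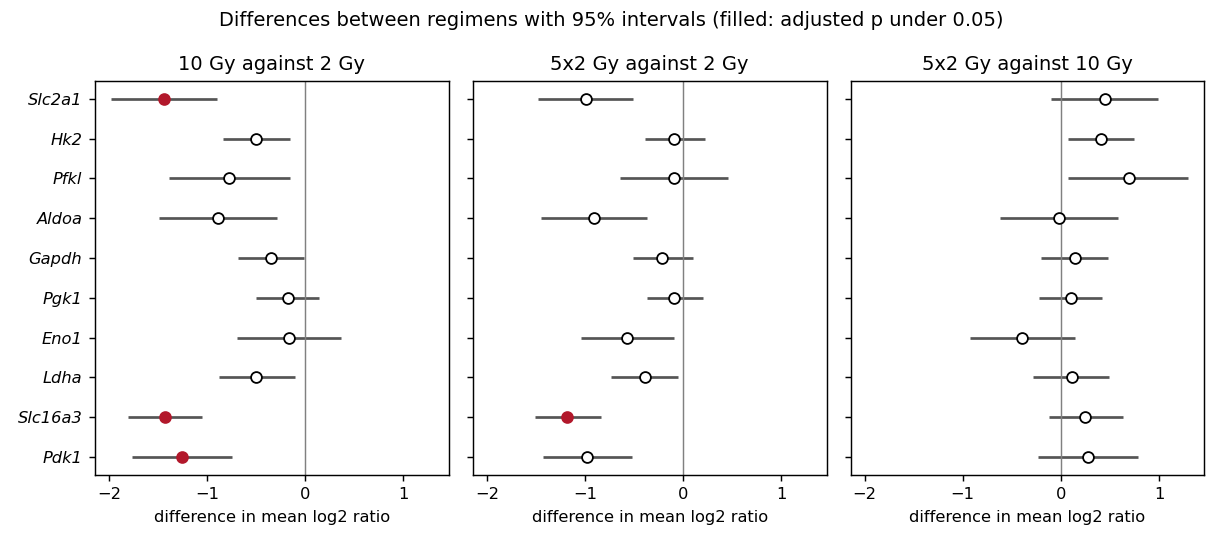
Difference in mean log2 ratio (x axis) between regimens for the 10 genes (y axis), with 95% intervals from limma; filled points passed the test. In the left panel Slc2a1, Slc16a3 and Pdk1 lie at -1.44, -1.43 and -1.26 with intervals below 0, in the middle panel Slc16a3 lies at -1.18, and in the right panel no point is filled.

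Giving 10 Gy in 5 fractions or at once made no difference that could be called for any of the 10 genes, where 0% of all genes were called and 2241 of 13409 had an unadjusted p under 0.05. The intervals of the differences, 5x2 Gy minus 10 Gy, ran from -0.10 to 0.99 for Slc2a1, from -0.12 to 0.63 for Slc16a3 and from -0.23 to 0.79 for Pdk1, so a difference of up to these sizes cannot be told from none. The widest were those of Pfkl (0.07 to 1.30) and Aldoa (-0.62 to 0.58). Hk2 had 0.41 (0.07 to 0.75, limma adjusted p = 0.25). On slide 2 the 3 arrays of 5x2 Gy lay above 10 Gy replicate 2 for Hk2, Gapdh, Ldha, Slc16a3 and Pdk1 by their tested probes. The share of all genes in this order was not counted, so the order is no result about these genes. Without 10 Gy replicate 2, Hk2 (0.47, limma adjusted p = 0.044) and Pfkl (1.21, limma adjusted p = 0.00055) were called higher after 5x2 Gy than after 10 Gy, where 43.2% of all genes were called.

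Around the 10 genes, 45 of 57 other genes of glucose transport, glycolysis, lactate handling and pyruvate entry could be tested. After 2 Gy, 5 were higher and 4 lower, after 10 Gy 6 and 7, and after 5x2 Gy 6 and 9, with medians of 0.06, -0.07 and -0.10. These shares, read against 16.9%, 28.2% and 41% of all genes, are near or below the background. With slide as a random block 0, 4 and 4 were called, where 0.157%, 10.9% and 6.09% of all genes were.

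Among the lactate genes, Ldhb, which encodes the heart type subunit of lactate dehydrogenase, was higher in every regimen. It read 0.90, 0.83 and 0.74 after 2 Gy, 1.77 and 1.31 after 10 Gy, and 1.29, 0.77 and 0.95 after 5x2 Gy, all above 0. Ldhb rose 1.77-fold, 2.91-fold and 2.01-fold (0.82 ± 0.12, 1.54 ± 0.15 and 1.01 ± 0.12, limma adjusted p = 0.0035, 0.00038 and 0.00047). Slc16a1, which encodes the more widely expressed lactate transporter MCT1, read -0.94, -1.12 and -0.99 after 2 Gy, -2.07 and -0.50 after 10 Gy, and 0.00, -0.19 and -0.29 after 5x2 Gy. It was lower after 2 Gy (-1.02 ± 0.23, limma adjusted p = 0.016) and after 10 Gy (-1.29 ± 0.28, limma adjusted p = 0.0085), not after 5x2 Gy (-0.16 ± 0.23). Of its other probes, one was also lower after 5x2 Gy (-0.83, limma adjusted p = 0.0036 over probes), so the probes disagree there. Bsg, the chaperone of both lactate transporters, had 0.36 ± 0.13, 0.06 ± 0.16 and 0.04 ± 0.13 and passed no test.

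At the control points of the upper pathway, Pfkfb3, whose product makes the activator of phosphofructokinase, was lower in every regimen. It read -0.44, -0.45 and -0.51 after 2 Gy, -1.04 on both 10 Gy arrays, and -0.82, -1.06 and -1.07 after 5x2 Gy, with little scatter within a regimen. Pfkfb3 fell 1.38-fold, 2.05-fold and 1.98-fold (-0.47 ± 0.09, -1.04 ± 0.11 and -0.98 ± 0.09, limma adjusted p = 0.0084, 0.00043 and 0.00018). The related Pfkfb1 read 0.51, 0.71 and 0.67 after 2 Gy, -1.20 and -0.10 after 10 Gy, and -0.51, -0.23 and -0.44 after 5x2 Gy. The 10 Gy arrays were far apart, and the low value came from replicate 1. Pfkfb1 was higher after 2 Gy (0.63 ± 0.17, limma adjusted p = 0.035) and lower after 10 Gy (-0.65 ± 0.21, limma adjusted p = 0.045), and was the only one of the 45 called between those regimens (-1.28 ± 0.27, limma adjusted p = 0.044). Slc2a9, a hexose and urate transporter, was higher after 10 Gy (0.64 ± 0.12) and 5x2 Gy (0.64 ± 0.10), and Slc2a3, the glucose transporter GLUT3, was lower after 10 Gy (-0.45 ± 0.13). Hk1 (0.14, -0.46 and -0.10 in the order 2 Gy, 10 Gy and 5x2 Gy), Gpi1 (0.23, -0.01 and 0.12), Pfkm (0.11, -0.26 and -0.07) and Pfkp (0.17, -0.43 and -0.19) passed no test. Hk3 was lower after 5x2 Gy (-0.63 ± 0.11). Tigar, grouped with the fructose phosphate steps, read 0.23, -0.30 and 0.16 after 2 Gy and 0.20 and 1.03 after 10 Gy. After 5x2 Gy it read 0.30, 0.23 and -0.03.

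In the lower pathway, Eno3, the muscle type enolase, rose by 0.57 ± 0.14, 1.09 ± 0.17 and 1.15 ± 0.14 (limma adjusted p = 0.021, 0.0019 and 0.00044). Eno2, the neuronal type, fell by 0.53, 0.50 and 0.74 by its tested probe, but another probe read 0.30, 0.37 and 0.38, so no direction is given for the gene. Pkm, pyruvate kinase, was higher after 2 Gy (0.58 ± 0.13, limma adjusted p = 0.016) and 5x2 Gy (0.41 ± 0.13, limma adjusted p = 0.029), with another probe at -0.27 after 2 Gy, where the probes disagree. Aldoc (0.16, -0.03 and -0.22), Tpi1 (0.35, -0.18 and -0.15) and Pgam1 (0.29, -0.08 and 0.07) passed no test.

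For the entry of pyruvate into mitochondria, Mpc2, a subunit of the pyruvate carrier, was higher in every regimen (0.60 ± 0.09, 0.41 ± 0.11 and 0.33 ± 0.09, limma adjusted p = 0.0034, 0.02 and 0.016), and its partner Mpc1 after 10 Gy (0.53 ± 0.13, limma adjusted p = 0.017). Pdha1, the subunit of pyruvate dehydrogenase that Pdk1 phosphorylates, was lower after 10 Gy (-0.53 ± 0.10, limma adjusted p = 0.0053) and 5x2 Gy (-0.56 ± 0.08, limma adjusted p = 0.0011). Dld, the dihydrolipoamide dehydrogenase of that complex, was lower in each regimen by the tested probe (-0.50, -0.50 and -0.83), while another probe read 0.35, 0.20 and 0.05. Of the other kinases of the complex, Pdk3 was higher after 5x2 Gy (0.53 ± 0.11, limma adjusted p = 0.006), and Pdk2 and Pdk4 passed no test.

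**Figure D4:**
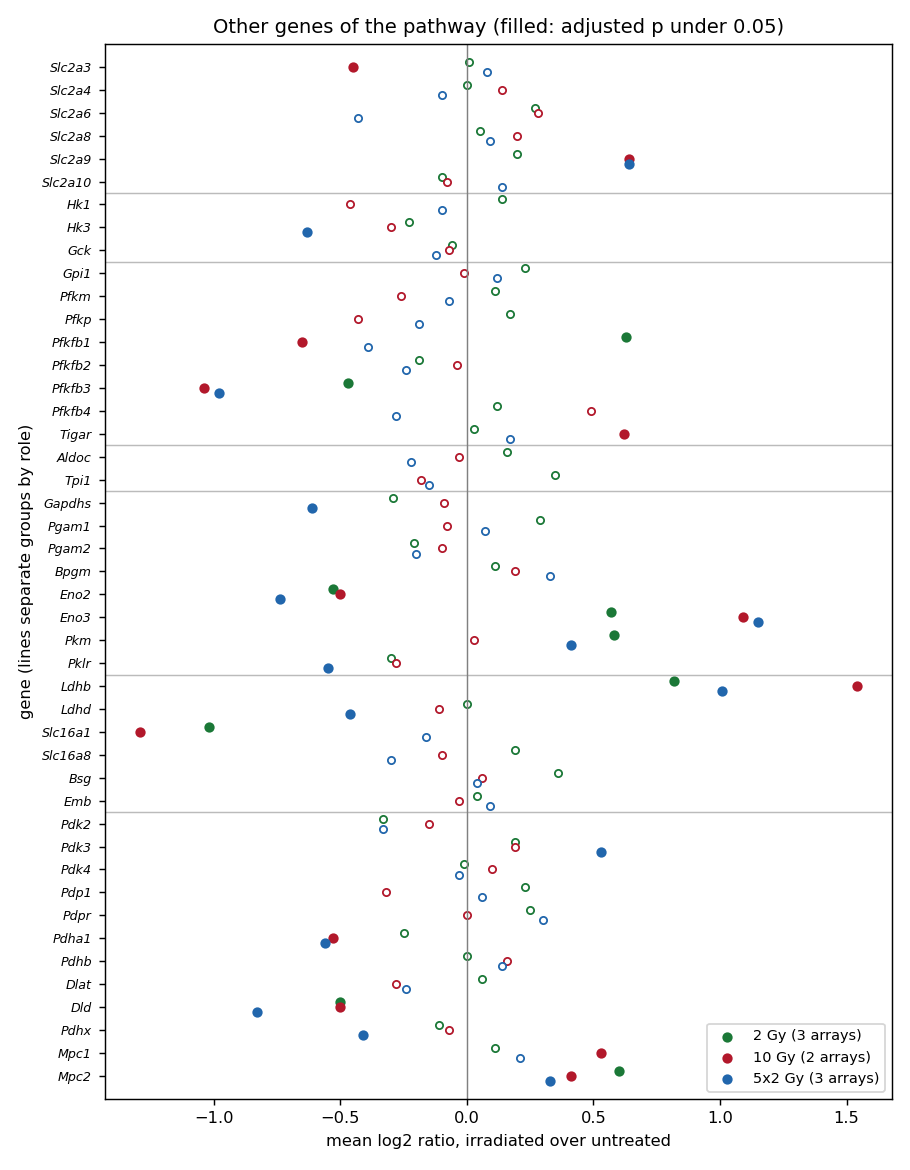
Mean log2 ratio of irradiated over untreated cells (x axis) for the 45 other pathway genes tested (y axis), with 1 point per regimen; filled points passed the test and lines separate the groups by role. Ldhb, Eno3 and Mpc2 have filled points above 0 in all 3 regimens, Pfkfb3 has filled points below 0 in all 3, and most genes have open points near 0.

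Across the 8 arrays the log2 ratios of Slc2a1, Slc16a3 and Pdk1 ran together, with Pearson's r of 0.929 between Slc2a1 and Slc16a3, 0.93 between Slc2a1 and Pdk1 and 0.938 between Slc16a3 and Pdk1. The median over the 45 pairs of the 10 genes was 0.681, and Pfkl with Eno1 was the lowest pair at -0.052. These correlations are over 8 arrays of 3 regimens that share slides and the dye layout, and serve as a description only. Among 4279 unsaturated genes with an SD of at least 0.3, those most like Slc2a1 included Qser1 (r = 0.966), Mir100hg (0.956), Fancd2 (0.95) and Fam193b (0.949). Those most like Slc16a3 were Aunip and Erg28 (both 0.994), Fancd2 (0.993), Malat1 (0.984) and Kdm3a (0.983). Fancd2, a gene of the Fanconi anaemia pathway of DNA repair, stood in both groups and had -0.15, -0.82 and -0.66 after 2 Gy, 10 Gy and 5x2 Gy. Fam193b, Erg28, Malat1 and Kdm3a shared the pattern across arrays but lay above 0 after 2 Gy (0.39, 0.37, 0.49 and 0.24). Aunip was at 0.01, and Qser1, Mir100hg and Fancd2 were at -0.14, -0.15 and -0.15.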

How the data were processed

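Per the labels, untreated RNA was in Cy3 and irradiated RNA in Cy5 on every array. Per the file headers, the deposited scanner files hold raw spot intensity from ImaGene 9.0, without background or normalization, and what their flags mean is not given. The matrix the authors deposited gives a log2 ratio per probe, Cy5 to Cy3, whose scale and direction were checked against the scanner values. Here, mean signals were corrected with normexp (offset 50, foreground only) and by loess within arrays that ignored control spots (limma 3.58.1, R 4.3.3). Probes above the median of 153 negative controls plus 2.6 robust SD in a channel on at least 2 arrays were kept, and the brightest per gene was tested. Symbols followed RefSeq accessions (27902 of 41174 probes matched). limma fitted 1 mean per regimen with eBayes, with calls at an adjusted p under 0.05. Bounded folds use the ceiling signal as read. The fit was tested on simulated data with independent errors per array. These held no slide effect, dye effect or ceiling, so the test cannot speak to those limits.

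The members, lists and the rule for naming genes (all members, the called pathway genes with the smallest p, named isozymes and the 5 genes most like Slc2a1 and Slc16a3, of which 1 is not reported here) were chosen with earlier results of these data known. Called pathway genes beyond 4 per direction are named after their values were seen, and not every called pathway gene is named. Alternatives covered background correction, centring, scaling, pixel summary, filter, probe choice, slide, replicate number, arrays in the fit, the deposited matrix and each array left out.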

Additional observations from a re-analysis of the deposited data

Results flagged for a closer look

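In the main fit, the response to X-rays differed between regimens for 3 of the 10 genes by the test of the difference itself. Over all genes, 2.56% were called between 10 Gy and 2 Gy and 1.31% between 5x2 Gy and 2 Gy. None of the 3 genes stayed called when any one of the 2 Gy or 5x2 Gy arrays was left out, where 0% to 0.0373% of all genes were. Slc2a1 was lower after 10 Gy than after 2 Gy by -1.44 on the log2 scale, Slc16a3 by -1.43 and Pdk1 by -1.26. Slc16a3 was also lower after 5x2 Gy than after 2 Gy, by -1.18. Groups of 2 or 3 arrays were not tested for single values that stand apart within a group.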

How the results depend on the processing

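Of 1242 values of the 10 genes under the alternatives, 57 were no longer called, 50 became called in the same direction, 3 became called in the opposite direction and 1132 kept their side of the threshold, 37 of them with a changed sign and no call on either side. Causes were not tested. The 3 values that turned were Slc16a3 after 2 Gy (0.37) and Pgk1 after 10 Gy (0.63) under median centring, and Pfkl after 5x2 Gy (-0.41) with slide as a fixed block. After 2 Gy, 3 of the 10 genes were called, beside 7 under median centring (26.9% of all genes). With the brightest unsaturated probe 0 were called (16.6%, without Aldoa, Gapdh and Eno1, which have none). With slide as a random block 0 were called (0.157%). Without 1 of the 2 Gy or 5x2 Gy arrays 1 to 3 were called (3.04% to 12.6%). After 10 Gy, 4 were called, beside 9 under median centring (29.2%). After 5x2 Gy, 4 were called, beside 2 with the random slide block (6.09%). Between 10 Gy and 2 Gy, 3 were called (2.56% of all genes). With scaling, the replicate block or only those arrays 0 were called, where 0.201%, 0% and 0% of all genes were. With slide as a fixed or random block 5 were called (32.1% and 21.6% of all genes). Without any one of the 2 Gy or 5x2 Gy arrays 0 were called (0% to 0.0373% of all genes). Between 5x2 Gy and 2 Gy, 1 was called (1.31% of all genes). With scaling or the replicate block 0 were called (0.418% and 0%). Without background correction, without a filter or with the fixed slide block 2 were called (1.84%, 1.19% and 17.7%). Median centring gave 4 (5.56%) and only those arrays 5 (29.9%). Without any one of the 2 Gy or 5x2 Gy arrays 0 were called (0% of all genes). Between 5x2 Gy and 10 Gy, 0 to 2 were called without 1 array (0% to 43.2%).

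Of the 45 other pathway genes, 9, 13 and 15 were called after 2 Gy, 10 Gy and 5x2 Gy, where 16.9%, 28.2% and 41% of all genes were. With slide as a random block the counts were 0, 4 and 4, where 0.157%, 10.9% and 6.09% of all genes were called. With only the arrays of the regimen they were 16, 1 and 25 (35.9%, 2.09% and 59.9% of all genes). After 2 Gy, scaling gave 15 (30.8% of all genes) and the fixed slide block 20 (33.3%). Without 1 array they were 3 to 20 after 2 Gy and 10 to 26 after 5x2 Gy. Median centring changed the split of higher and lower calls from 5 and 4 to 11 and 2 after 2 Gy, and from 6 and 7 to 11 and 5 after 10 Gy. Under it 26.9% and 29.2% of all genes were called, and their split by direction was not counted.

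Same-numbered arrays did not consistently vary together (r = -0.021, -0.028 and -0.029 between 2 Gy and 5x2 Gy, 0.115 and 0.051 between 2 Gy and 10 Gy, -0.243 and -0.203 between 10 Gy and 5x2 Gy), so equal numbers were not taken as pairs. The replicate block left 2, 4 and 3 of the 10 genes called against untreated cells, where 10.2%, 18.9% and 34.8% of all genes were. A 10 Gy array left alone was assumed to vary like the other arrays. The random slide block had a correlation of 0.697 within slides. With a mean per regimen fitted, only the 10 Gy pair compares the slides. A slide effect therefore cannot be told from a difference between those 2 arrays. Saturated signals limit the ratios of Aldoa and Gapdh, and the 2 to 3 arrays per regimen limit every comparison between regimens.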
